A study of Homo sapiens with 12 samples.

Results

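The mRNAs of 10 enzymes that build chondroitin sulfate were followed in 3 intrahepatic cholangiocarcinoma (ICC) lines after knockdown of LKB1. They were taken by gene symbol: the starting enzymes CSGALNACT1 and CSGALNACT2, the polymerase family CHSY1, CHSY3, CHPF and CHPF2, and the sulfotransferases CHST11, CHST12, CHST15 and UST. All 10 were found among the 18815 rows of the deposited table. They were selected with the changes in these libraries known, CHPF as the largest rise among them, so their fold changes with LKB1 siRNA are given as a description. No p of such a fold change is printed for an enzyme, and whether it passed the threshold over all genes is given only to describe its size against the spread. All 10 were also among the 16146 genes kept for testing, which had to reach a signal of 1 in 2 or more libraries. Of the enzymes, 9 reached it in all 12 libraries and CHST15 in 11.

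Chondroitin sulfate is a linear sugar chain that hangs on proteoglycan core proteins through a short linker shared with heparan sulfate. Attaching N-acetylgalactosamine to the linker commits the chain to chondroitin, after which the polymerases add glucuronic acid and N-acetylgalactosamine in turn. Sulfotransferases then place sulfate at chosen carbons, and the pattern of sulfates sets which proteins bind the chain. In many carcinomas these chains fill the matrix around tumor cells and take part in adhesion and migration.

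Cells of the established ICC lines HuH-28, SSP-25 and RBE were transfected with siRNA to LKB1 or with scramble siRNA as control, and total RNA was sequenced at 48 h. Each line and siRNA gave 2 libraries, so that 6 groups held 12 libraries. Per the labels, each well of a 6-well plate received 45 pmol of either siRNA (the unit is written pmal) with Lipofectamine RNAiMAX, and HuH-28 was kept in MEM and RBE and SSP-25 in RPMI1640. No untransfected cells were analysed here, so a higher level with LKB1 siRNA and a lower level with control siRNA cannot be told apart. The knockdown is transient, each line is 1 established culture, and the replicates are called a first and a second test without a word on whether their cultures were separate. The p-values therefore measure only the spread between these libraries.

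Values are the authors' normalized reads per kilobase, called signal below, which are per length and so can be set side by side between genes. They summed to between 9909644 and 11726703 per library, and the read depth is unknown because the values hold no read counts. STK11, the gene of LKB1, checks the labels: its LKB1 siRNA libraries lay below the control libraries of the line throughout, with log2 fold changes of -1.59 in HuH-28, -2.77 in SSP-25 and -1.68 in RBE. The biliary keratin KRT7 was between 2406 and 14978 in all 12 libraries, and SOX9 between 188 and 679. Of the markers of other cells, ALB, APOB and CDH5 were at most 1.34, PTPRC at most 6.59 and PECAM1 at most 12.8, while CD68 lay between 723 and 1967. HuH-28 departed from its biliary label in part. There KRT19 lay between 9.86 and 17.3, EPCAM was at most 1.31 and the fibroblast collagen COL3A1 was between 21708 and 27040. By contrast, KRT8 was between 2499 and 3968 and KRT18 between 4272 and 6553 in that line. The collagen COL1A1 was between 12720 and 18628 in HuH-28. SSP-25 also held 6538 to 11339 of COL1A1, but its COL3A1 was only between 2.36 and 6.47. With LKB1 siRNA, COL1A1 was higher in each line (log2 fold changes of 0.40 in HuH-28, 0.72 in SSP-25 and 0.61 in RBE). COL3A1 passed in no line (-0.25 in HuH-28, 0.64 in SSP-25 and 0.15 in RBE). Of 7 biliary markers 3 passed as higher in HuH-28 (14.3% of all genes) and 4 as higher in SSP-25 (21.1%). In RBE 2 of them passed as lower, as did 2996 of the 16146 genes tested. KRT8 and KRT18 were those lower in RBE (-0.67 and -0.60) and were higher in HuH-28 (0.56 and 0.42) and SSP-25 (0.31 and 0.41). SOX9 was at 1.38 in SSP-25, 0.23 in HuH-28 and -0.18 in RBE. Their part in the values below was not tested. In bulk RNA, fewer cells with a transcript and less of it per cell cannot be told apart.

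All 10 enzymes were higher with LKB1 siRNA than with control siRNA in each of the 3 lines, and in all 30 pairs of enzyme and line both LKB1 siRNA libraries lay above both control libraries. Among all genes tested, 13.6% had LKB1 siRNA libraries above control libraries in each line. Log2 fold changes, on log2(signal + 0.5), ran from 0.08 for CHSY1 in RBE to 3.10 for CHPF in SSP-25. On average over the lines 10 of 10 passed as higher at a limma adjusted p under 0.05, as did 27.3% of all genes, and 25.2% of all genes passed as lower but 0 enzymes. Of the 10, 5 also had an average log2 fold change above 1 (3.13% of all genes), namely CHPF, CHST15, CSGALNACT1, CHSY3 and UST. By line 7 passed as higher in HuH-28 (14.3% of all genes), 8 in SSP-25 (21.1%) and 9 in RBE (22.1%). Their median log2 fold change was 0.60 in HuH-28, 0.69 in SSP-25 and 1.21 in RBE, and that of all genes was at most 0.02 in any line. Because the enzymes were selected on this contrast, nothing is read from these counts.

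**Figure D1:**
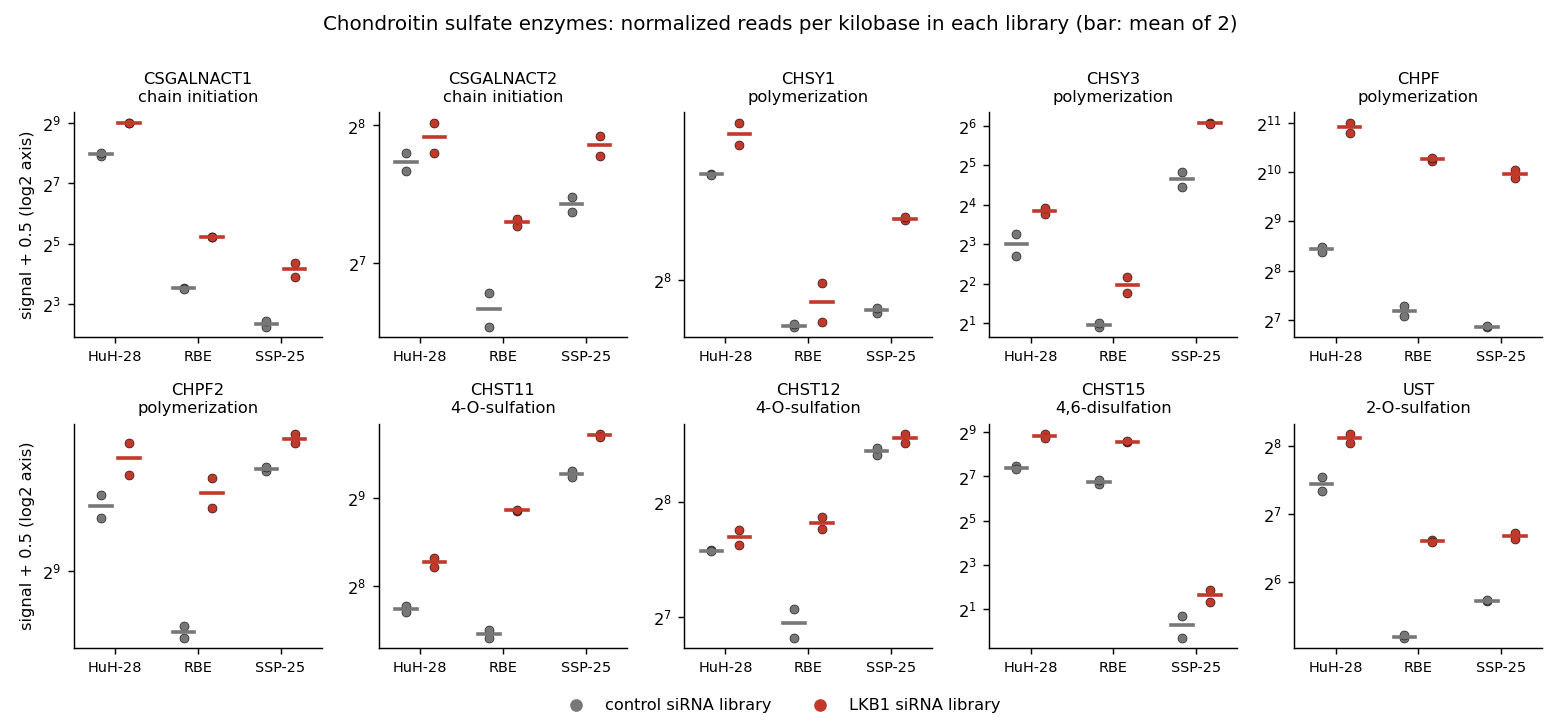
Signal plus 0.5 of each enzyme on a log2 axis (each panel has its own range), with 1 point per library (grey, control siRNA; red, LKB1 siRNA) and a bar at the mean of 2 libraries. In every panel and line both red points lie above both grey points, with the widest gap for CHPF and hardly any for CSGALNACT2 in HuH-28 and CHSY1 in RBE.

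Chain initiation rests on CSGALNACT1 and CSGALNACT2, the N-acetylgalactosaminyltransferases that put the first chondroitin sugar on the linker. CSGALNACT1 (chromosome 8 in GENCODE v29, GRCh38) differed strongly between the lines. In HuH-28 its signal was 239 and 259 with control siRNA and 514 and 516 with LKB1 siRNA. The RBE libraries were at 11.1 and 10.9 against 37.3 and 37.0. Those of SSP-25 were at 4.24 and 4.93 against 14.6 and 20.1. The level was thus highest in HuH-28 under both siRNAs, and no LKB1 siRNA library of the other lines came near a HuH-28 control library. The log2 fold change was 1.05 in HuH-28, 1.80 in SSP-25 and 1.71 in RBE (standard error 0.15 in each). With a pseudocount of 10 in place of 0.5, which shrinks changes of low signals, that of SSP-25 was 0.90.

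CSGALNACT2 was the more even of the pair and moved less. In HuH-28 its libraries almost touched, with 203 and 222 against 222 and 259. The mean went from 171 ± 9.32 to 231 ± 16.5 in SSP-25 and from 100.5 ± 12.1 to 156 ± 4.07 in RBE (SD, n = 2 for each value). By line its change was 0.18 in HuH-28, 0.43 in SSP-25 and 0.64 in RBE (log2, standard error 0.11 in each), and HuH-28 did not pass. The SSP-25 value lost its pass when the first control library (0.37) or the second LKB1 siRNA library (0.36) was left out. CSGALNACT1 made up 53.8% to 54.0% of the summed signal of the pair in HuH-28 control libraries and 66.6% to 69.8% in LKB1 siRNA libraries. In RBE its share went from between 9.12% and 10.8% to between 18.9% and 19.6%, and in SSP-25 from between 2.51% and 2.70% to between 6.23% and 7.65%. CSGALNACT2 therefore remained the larger transcript in RBE and SSP-25 under both siRNAs.

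**Figure D2:**
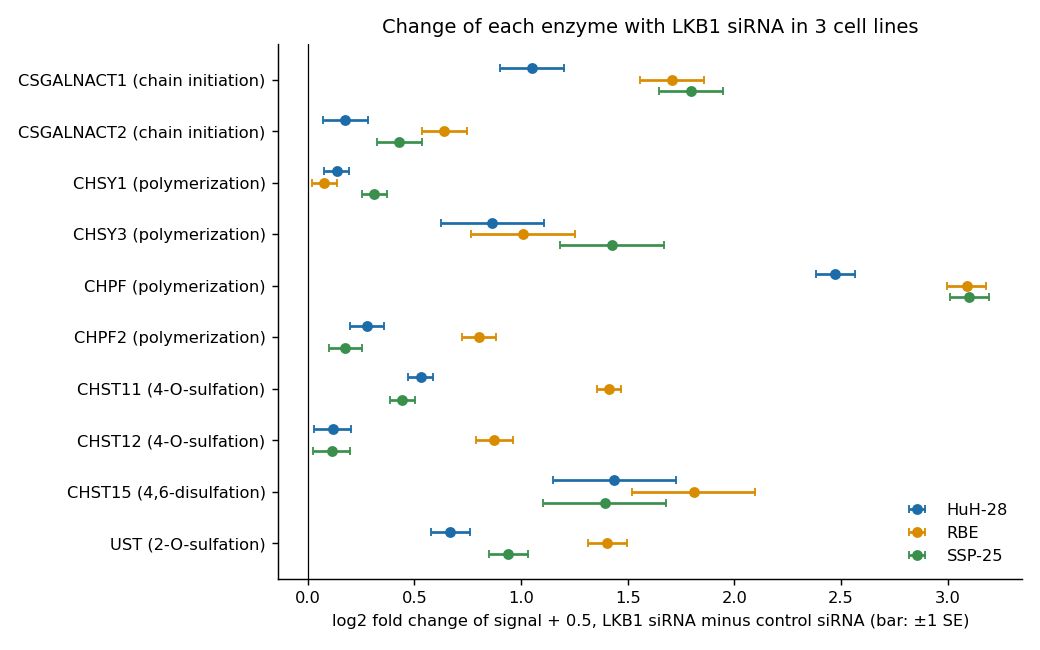
Log2 fold change of signal + 0.5, LKB1 siRNA minus control siRNA, for each enzyme by line (blue, HuH-28; orange, RBE; green, SSP-25), with bars of 1 standard error from limma. All 30 points lie above 0; CHPF stands at 2.47 to 3.10, and the RBE points of CHPF2, CHST11, CHST12 and UST lie to the right of those of the other lines.

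CHPF, the chondroitin polymerizing factor, had the largest change of the 10 and ranked 3 of 16146 genes by average log2 fold change. In HuH-28 its signal was 359 and 333 with control siRNA and 2058 and 1792 with LKB1 siRNA. The SSP-25 libraries were at 115 and 116 against 1052 and 941. Those of RBE were at 155 and 134 against 1199.9 and 1257. The lowest LKB1 siRNA library of any line was thus above the highest control library of any line. The mean with LKB1 siRNA was 5.57 times the control mean in HuH-28, 8.63 times in SSP-25 and 8.51 times in RBE. On the log2 scale these changes were 2.47, 3.10 and 3.09 (standard error 0.09 in each). CHPF acts with a partner of its family in the polymerase complex and has itself little polymerase activity.

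CHPF lies on the reverse strand of chromosome 2 from 219538947 to 219543787, and CHST15, described below, on the reverse strand of chromosome 10 from 124007666 to 124093607 (GENCODE v29, GRCh38; the deposited values carry no coordinates and were made on other builds). An earlier analysis of these libraries had related a pair of 7-base words to fold changes, GCAGTAC in the 3′ UTR to higher values and GAAGGAA to lower values. Both words were searched on the transcript strand in the longest annotated 3′ UTR of each enzyme. GCAGTAC was in 4.98% of all 14927 UTRs searched and in those of 2 enzymes, CHPF and CHST15, whose average log2 fold changes were 2.89 (standard error 0.05) and 1.55 (0.17), with CSGALNACT1 next at 1.52 (0.09). Their sites are shown because the match runs on beyond the word. The 30 bases around each, with the word in capitals, are as follows.
CHPF, chr2:219539097-219539126, reverse strand: cacgtatttatGCAGTACagtctgcctgac
CHST15, chr10:124008356-124008385, reverse strand: tatatttatttGCAGTACagtgcgcgcgtg
Both UTRs share the 11-base run TGCAGTACAGT, which 17 of the 14927 UTRs hold (0.114%), a run chosen after it was seen. The word begins at base 268 of the 436 bases of the CHPF UTR, and 1.502% of UTRs within 20% of that length hold it. In CHST15 it begins at base 1775 of 2483, and 7.30% of UTRs of such a length hold it.

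GAAGGAA was in 20.9% of the UTRs searched and in those of CSGALNACT1, CHST11 and CHST12, whose average log2 fold changes were 1.52, 0.79 and 0.37, all above 0. The UTR of CHST12 is 14599 bases long, and 92.6% of UTRs within 20% of that length hold the word. The other 5 enzymes (CSGALNACT2, CHSY1, CHSY3, CHPF2 and UST) hold neither. The words and the enzymes were both chosen with the fold changes of these same libraries known. The matches are therefore a description from which nothing is read, and their part in the fold changes was not tested. Exons of CHPF overlap those of TMEM198 on the opposite strand over 125 bases. Exons of CHPF2 overlap MIR671 on the same strand over 118 bases and SMARCD3 on the opposite strand over 64. Antisense genes overlap exons of CHSY3 over 52 bases and of UST over 3. The library kit does not mark strand, so reads from stretches shared on opposite strands cannot be assigned to 1 gene. Strand would not separate MIR671 from CHPF2 in any case.

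The other members of the polymerase family changed less. CHSY1, a chondroitin synthase that carries both transferase activities, was 328 and 327 with control siRNA and 351 and 370 with LKB1 siRNA in HuH-28. The RBE pairs were 229 and 230 against 254 and 231, so that the libraries barely separated. Those of SSP-25 were 236 and 239 against 294 and 296. Its changes of 0.14 in HuH-28 and 0.08 in RBE did not pass, and that of SSP-25 was 0.31 (log2, standard error 0.06 in each). Without SSP-25 the average of CHSY1 was 0.11 and did not pass.

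CHSY3, a second synthase, was scarce. Its mean went in HuH-28 from 7.50 ± 2.12 to 13.8 ± 1.16, in SSP-25 from 24.6 ± 4.51 to 66.4 ± 0.94 and in RBE from 1.44 ± 0.10 to 3.44 ± 0.77 (SD, n = 2 for each value). In the same order its log2 fold changes were 0.87, 1.43 and 1.01 (standard error 0.24 in each). Among the fits in which the HuH-28 value lost its pass were those without the second control library (0.59), the first LKB1 siRNA library (0.95) or the second (0.78). That of RBE lost it without its first LKB1 siRNA library (0.81). At a pseudocount of 10 the value in RBE was 0.23 and did not pass. CHSY3 thus stood out by its ratio and not by its amount, since it never exceeded 3.05% of the family's signal.

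CHPF2, the paralog of CHPF, was the most abundant polymerase transcript in every control library. Its mean went in HuH-28 from 662 ± 43.1 to 803 ± 72.5, in SSP-25 from 768 ± 9.11 to 868 ± 23.3 and in RBE from 400.5 ± 14.4 to 699.6 ± 60.2 (SD, n = 2 for each value). The log2 fold change was 0.28 in HuH-28, 0.18 in SSP-25 and 0.80 in RBE (standard error 0.08 in each), and SSP-25 did not pass. The HuH-28 value lost its pass when the second control library (0.21) or the first LKB1 siRNA library (0.18) was left out, and also with no filter, with no trend and with that line fitted alone.

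The makeup of the family therefore differed between the siRNAs. CHPF made up 25.6% to 25.8% of the summed signal of the 4 polymerase genes in HuH-28 control libraries and 61.2% to 62.8% in LKB1 siRNA libraries. In RBE its share was 17.2% to 19.97% and 56.3% to 56.7%, and in SSP-25 10.0% to 10.1% and 43.7% to 45.8%. CHPF2 had held 48.7% to 67.1% in control libraries of the 3 lines and held 25.7% to 39.5% with LKB1 siRNA. CHPF was thus the most abundant of the 4 in every LKB1 siRNA library. The summed signal went in HuH-28 from 1343 ± 64.0 to 3102 ± 246, in SSP-25 from 1146 ± 16.3 to 2226 ± 101 and in RBE from 776 ± 0.64 to 2174 ± 83.8 (SD, n = 2 for each value).

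**Figure D3:**
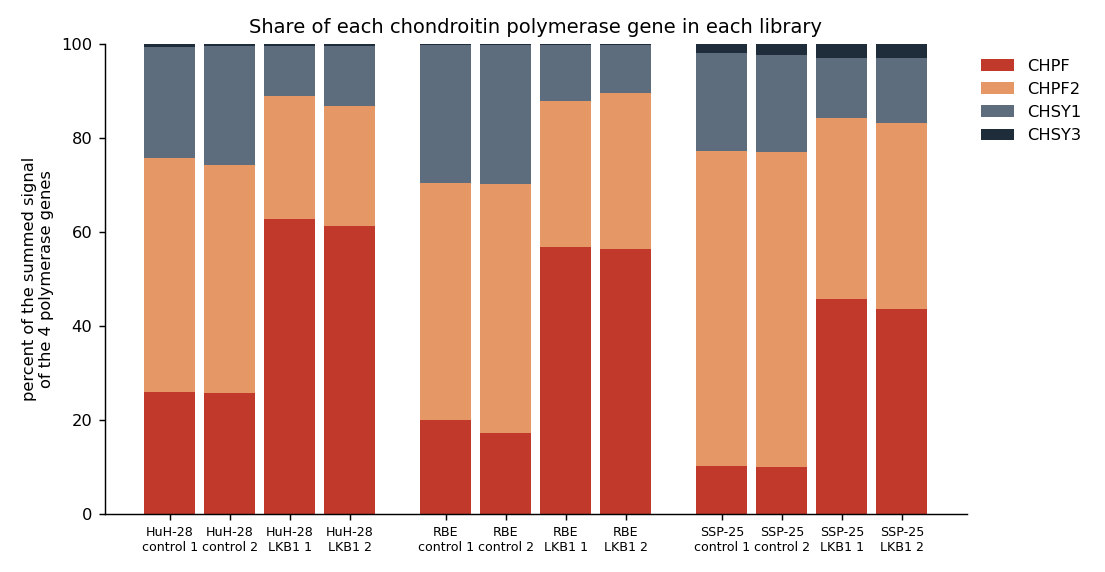
Percent of the summed signal of CHPF, CHPF2, CHSY1 and CHSY3 in each of the 12 libraries, as stacked bars that reach 100. The red CHPF part is 10.0% to 25.8% in control siRNA libraries and 43.7% to 62.8% in LKB1 siRNA libraries.

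Sulfate at the 4 position of N-acetylgalactosamine is placed by CHST11 and CHST12. In HuH-28 CHST11 was 217 and 208 with control siRNA and 319 and 295 with LKB1 siRNA. The RBE pairs were 179 and 168 against 461 and 466, and those of SSP-25 were 630.3 and 604 against 848 and 830.0. SSP-25 had the highest level under either siRNA, and RBE the widest gap between its groups. The log2 fold change was 0.53 in HuH-28, 0.44 in SSP-25 and 1.41 in RBE (standard error 0.06 in each).

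CHST12 passed in RBE and in neither of the other lines. Its mean went in HuH-28 from 191 ± 0.95 to 207 ± 13.4, in SSP-25 from 347 ± 9.76 to 375 ± 14.3 and in RBE from 123 ± 15.1 to 225 ± 11.4 (SD, n = 2 for each value). In the same order the changes were 0.12, 0.11 and 0.87 (log2, standard error 0.09 in each), and the average without RBE, 0.11, did not pass. CHST11 made up 52.2% to 65.0% of the summed signal of CHST11 and CHST12 in control libraries and 59.6% to 69.5% in LKB1 siRNA libraries, and within each line the LKB1 siRNA libraries had the larger share.

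CHST15 adds a sulfate at the 6 position to a unit that already has one at the 4 position, giving the disulfated chondroitin sulfate E. In HuH-28 its signal was 178 and 159 with control siRNA and 485 and 430.2 with LKB1 siRNA. The RBE libraries were at 102 and 113 against 371 and 383. In SSP-25 CHST15 was close to 0, with 1.14 and 0.31 against 3.18 and 1.98. HuH-28 and RBE were therefore close to each other and both LKB1 siRNA groups lay far above their controls, while the SSP-25 values were near the lower end of the table. By line the log2 fold change was 1.44 in HuH-28, 1.39 in SSP-25 and 1.81 in RBE (standard error 0.29 in each). In SSP-25 the value was 0.23 at a pseudocount of 10 and did not pass, nor did it with that line fitted alone. Without the first control library it was 1.90 and without the second 0.88.

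UST places sulfate at the 2 position of the uronic acid. In HuH-28 it was 186 and 161 with control siRNA and 289 and 263 with LKB1 siRNA. The RBE libraries were at 35.8 and 37.0 against 98.3 and 95.9, and those of SSP-25 at 52.5 and 52.8 against 105 and 98.4. The LKB1 siRNA libraries of RBE and SSP-25 remained below the HuH-28 control libraries. The log2 fold change was 0.67 in HuH-28, 0.94 in SSP-25 and 1.40 in RBE (standard error 0.09 in each).

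Control siRNA libraries are one side of the contrast the enzymes were selected on, but differences between lines in the control level were not used to select them. These levels differed between the lines for 10 of 10 (limma F test, adjusted p between 4.7e-10 for CSGALNACT1 and 1.9e-05 for CHSY1), as they did for 90.5% of all genes tested. Differences between control means are in log2(signal + 0.5) from limma. Between RBE and HuH-28 9 of 10 differed (77.3% of all genes), between SSP-25 and HuH-28 10 (74.8%) and between SSP-25 and RBE 9 (73.1%), so the enzymes were tested against a background in which most genes differ. HuH-28 had the highest mean control level of 6 enzymes. For CSGALNACT1 the control of RBE minus that of HuH-28 was -4.43 and SSP-25 minus HuH-28 was -5.62 (standard error 0.15 in each). UST was -2.23 and -1.71 (standard error 0.09), CHPF -1.26 and -1.58 (0.09), CSGALNACT2 -1.08 and -0.31 (0.11) and CHSY1 -0.51 and -0.46 (0.06) in the same order. The sixth was CHST15. Since HuH-28 was kept in MEM and RBE and SSP-25 in RPMI1640, line and medium cannot be told apart in differences from HuH-28.

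The order of the lines was not the same for every step. SSP-25 had the highest control level of CHST11, CHST12, CHSY3 and CHPF2, with SSP-25 minus HuH-28 at 1.54 (standard error 0.06), 0.86 (0.09), 1.66 (0.24) and 0.21 (0.08). The last of these had an adjusted p of 0.031 by limma, and the others of at most 1.2e-04. CHST15 did the opposite, with SSP-25 minus HuH-28 at -7.19 and SSP-25 minus RBE at -6.55 (standard error 0.29 in each). RBE minus HuH-28 in CHST15 was -0.65 and missed the threshold (standard error 0.29, limma adjusted p = 0.063), although the control libraries of the 2 lines did not overlap. That standard error is pooled over all groups, the SSP-25 libraries near 0 included. SSP-25 minus RBE in CHSY1 was 0.05 (standard error 0.06, limma adjusted p = 0.45). SSP-25 control cells thus held the most CHST11 and CHST12 mRNA of the 3 lines and the least CHST15 mRNA.

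The size of the response to LKB1 siRNA differed between the lines for 6 of the 10 (limma F test, adjusted p under 0.05), and for 28.2% of all genes tested. These differences are built from the fold changes whose average the enzymes were selected on, so shares of all genes are given beside the counts as background and nothing is read from them about the enzymes as a group. These were CHST11 (adjusted p = 1.3e-04), CHST12 (0.0025), CHPF2 (0.0059), UST (0.0073), CHPF (0.0082) and CSGALNACT1 (0.045). The response of 4 of them, CHPF2, CHST11, CHST12 and UST, was larger in RBE than in HuH-28 and than in SSP-25 by limma, which held for 3.98% of all genes. For CHST11 the log2 fold change in RBE exceeded that of HuH-28 by 0.88 and that of SSP-25 by 0.97 (standard error 0.08 in each). For CHST12 the excesses were 0.76 and 0.76 (standard error 0.12), for UST 0.74 and 0.46 (0.13) and for CHPF2 0.52 and 0.62 (0.11). RBE had the lowest mean control level of CHST11, CHST12, CHPF2 and UST among the 3 lines, and also of CSGALNACT2, CHSY1 and CHSY3. The responses of CSGALNACT2, CHSY1 and CHSY3 did not pass as larger in RBE than in both other lines. The log2 fold change of CSGALNACT2 was still largest in RBE (0.64). The part of the control level in the responses was not tested.

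CHPF followed another pattern, in which HuH-28 stood apart. Its log2 fold change was larger by 0.62 in RBE (standard error 0.13, limma adjusted p = 0.012) and by 0.63 in SSP-25 (standard error 0.13, limma adjusted p = 0.011) than in HuH-28. RBE and SSP-25 differed by -0.01 (standard error 0.13, limma adjusted p = 0.97). HuH-28 alone was kept in MEM, so line and medium cannot be told apart in responses that set it against RBE or SSP-25. In all, 5 of 10 responses were larger in RBE than in HuH-28 (8.16% of all genes), 4 larger in RBE than in SSP-25 (11.2%) and 2 larger in SSP-25 than in HuH-28 (8.83%), namely CHPF and CSGALNACT1. The F test of CSGALNACT1 had the largest p of the 6. It gave an adjusted p of 0.054 at a pseudocount of 1, 0.31 at a pseudocount of 10, 0.063 with no filter and 0.12 after quantile normalization. It also gave an adjusted p of 0.079 and 0.12 without the first or second HuH-28 control library, 0.10 without either HuH-28 LKB1 siRNA library, 0.072 and 0.075 without either RBE control library, 0.079 and 0.081 without either RBE LKB1 siRNA library and 0.083 and 0.051 without either SSP-25 control library. The fall of STK11 also differed between the lines (limma F test, adjusted p = 0.0013), being largest in SSP-25, and its part in these differences was not tested.

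No difference in response was detected for CSGALNACT2 (limma F test, adjusted p = 0.094), CHSY1 (0.11), CHSY3 (0.41) and CHST15 (0.66). The pooled spread was wide for CHSY3 and CHST15, whose pairwise differences had standard errors of 0.34 and 0.41. For CHST15 the pool includes SSP-25, whose control libraries were at 1.14 and 0.31. Its control libraries were at 178 and 159 in HuH-28 and at 102 and 113 in RBE. With a pseudocount of 10 the F test passed for CHSY3 and CHST15 (0.0033 and 1.1e-04), since the lines with low signal then had small changes.

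Around these enzymes lie others of the same chains, taken as lists written with earlier results of these data known. In the linker list, 6 of 7 genes were higher and 1 lower on average at a limma adjusted p under 0.05, and 3 were higher when RBE was left out. In this contrast 27.3% of all genes passed as higher and 25.2% as lower, the background for every list below. Except where said, genes described from these lists were picked for large average changes among those passing. An average p printed for such a gene could not fail the threshold, and it describes only size against the spread. ACPL2, also named PXYLP1, removes the phosphate from the linker xylose, and it went in HuH-28 from 5.09 to 15.6, in SSP-25 from 6.44 to 22.5 and in RBE from 6.83 to 22.3 (means of 2 libraries). On average this was 1.63 on the log2 scale (standard error 0.14, limma adjusted p = 5.8e-06). FAM20B, the kinase that adds that phosphate, fell by 0.52 on the log2 scale on average (standard error 0.04, limma adjusted p = 2.5e-06), and its LKB1 siRNA libraries were below the control libraries in each line. B3GALT6, which adds the second galactose of the linker, had an average of 0.45 (standard error 0.05).

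Of 6 other genes of chondroitin and dermatan sulfation and epimerization, 6 were higher on average and 0 lower. By line 6 were higher in RBE (22.1% of all genes) and 5 in SSP-25 (21.1%). In HuH-28 1 was higher (14.3% of all genes) and 1 lower, where 2500 of the 16146 genes tested were lower. DSE, the epimerase that turns glucuronic into iduronic acid, changed in opposite directions. It went in HuH-28 from 41.3 to 34.2, in SSP-25 from 584 to 708 and in RBE from 101 to 282 (means of 2 libraries), or by -0.27, 0.28 and 1.47 on the log2 scale (each with a standard error of 0.08). Without RBE its average was 0.004. CHST14, the dermatan 4-O-sulfotransferase, had an average of 0.44 (standard error 0.06), and CHST7, a 6-O-sulfotransferase, one of 0.39 (0.07), with LKB1 siRNA libraries above control libraries in each line for both.

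Of 14 genes of substrate supply, 5 were higher and 6 lower on average, where all genes tested had 27.3% and 25.2%, and 3 higher when RBE or SSP-25 was left out. SLC35D1, which carries UDP-sugars into the endoplasmic reticulum for chondroitin synthesis, was higher by 0.82 on the log2 scale on average (standard error 0.06, limma adjusted p = 2.7e-06). UGP2, which makes UDP-glucose, had 0.78 (standard error 0.03, limma adjusted p = 1.4e-08). IMPAD1, also named BPNT2, clears the product left by sulfation in the Golgi, and it fell by 0.64 (standard error 0.04, limma adjusted p = 3.8e-07).

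**Figure D4:**
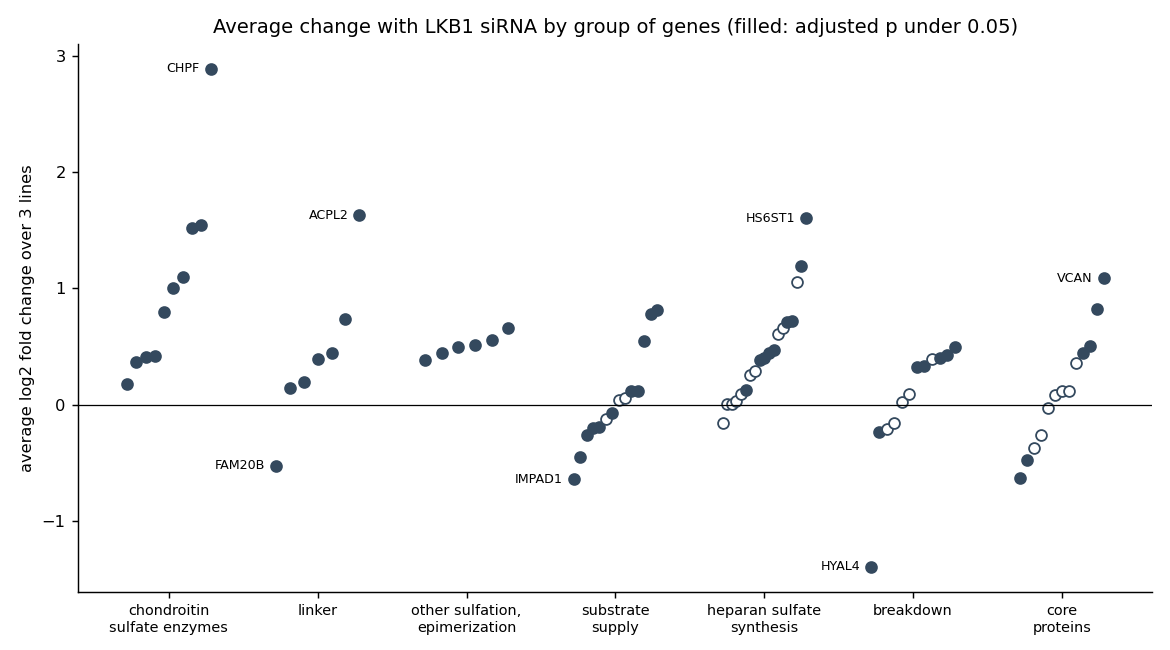
Average log2 fold change over the 3 lines, LKB1 siRNA minus control siRNA, for each tested gene of 7 groups, sorted within a group, with filled points for a limma adjusted p under 0.05 and open points for the others. CHPF at 2.89 is the highest point, and genes of substrate supply lie on both sides of 0; the chondroitin sulfate enzymes were selected on this measure.

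Heparan sulfate grows on the same linker. Of 21 genes of its synthesis 19 were tested, with 9 higher and 0 lower on average, and the shares of all genes were those given for the linker. Among those higher, NDST3, HS6ST3 and HS3ST2 had mean signals of only 0.88, 0.87 and 1.95 over all libraries. The count higher was 7 at a pseudocount of 0.1 and 10 at a pseudocount of 1 or 10. The polymerases EXT1 and EXT2, looked up as the counterparts of the chondroitin polymerases, did not pass on average (limma adjusted p of 0.88 and 0.95). EXT1 changed in opposite directions, with 0.23 in HuH-28 (limma adjusted p = 0.012), -0.17 in SSP-25 (limma adjusted p = 0.031) and -0.03 in RBE (limma adjusted p = 0.68). EXT2 was between -0.02 and 0.03 in the lines and passed in none. HS6ST1, a 6-O-sulfotransferase, went in HuH-28 from 136 to 469, in SSP-25 from 56.4 to 149 and in RBE from 68.5 to 214 (means of 2 libraries). On average this was 1.60 on the log2 scale (standard error 0.06, limma adjusted p = 1.9e-08). HS2ST1, a 2-O-sulfotransferase, had 0.47 and EXTL3, which starts the heparan chain, 0.45.

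Of 12 genes of breakdown, 5 were higher and 2 lower (HYAL4 and SUMF1) on average, where all genes tested had 27.3% and 25.2%. The hyaluronidase HYAL2 had an average of 0.49 and the sulfatase GALNS one of 0.40, while HYAL4 fell by 1.39 from control signals that were at most 4.39. Of 16 core protein genes 13 were tested, with 4 higher (VCAN, CSPG5, SPOCK1 and SPOCK2) and 2 lower (BCAN and ESM1), again beside 27.3% and 25.2% of all genes. SPOCK1, a testican, had an average of 0.45 (standard error 0.04). SPOCK2 had 0.50 from -0.25 in HuH-28, 1.37 in SSP-25 and 0.38 in RBE, of which only SSP-25 passed, and its average was 0.07 without SSP-25 and 0.33 after quantile normalization, passing in neither. VCAN, the large matrix proteoglycan versican, was picked out after its values were seen. Its mean went from 32.6 to 200.1 in SSP-25 and from 876 to 1419 in RBE, and it was 3059 with control and 2981 with LKB1 siRNA in HuH-28. The log2 fold changes were 2.60, 0.70 and -0.04 in that order (standard error 0.12 in each), and HuH-28 did not pass.

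Among 12221 genes whose signal averaged 20 or more, those whose log2 signal was most like that of CHPF over the 12 libraries were SGTA (Pearson r of 0.990), R3HDM2 (0.989), MAVS (0.988), UCK1 (0.988) and UBE2G2 (0.988). The 12 points share 3 lines and 2 siRNAs and are not independent, so r is a description. Their average log2 fold changes were smaller than that of CHPF, between 0.71 for MAVS and 1.24 for UCK1.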

How the data were processed

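Per the labels, 12 TruSeq RNA libraries were mapped to 6 groups by title. The deposited values are normalized reads per kilobase, taken here as signal: libraries sum to a similar total, but the scale is not RPKM, and depth and counts are unknown. The paper describes NextGENe and an older build. TopHat 1.2.0, edgeR, hg19 and GRCh37 appear in the submitters' processing notes. Which of the 2 routes the authors used for these values is not clear. Of 18815 rows, 23 repeated rows were left out, 28 hold dates for symbols, and values under 1e-06 were set to 0.

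A mean for each of 6 groups was fitted to log2(signal + 0.5) with limma (version 3.58.1, R 4.3.3), using eBayes with trend and 6 residual degrees of freedom. Adjustment was by Benjamini-Hochberg over the 16146 genes that reached a signal of 1 in 2 or more libraries. Passing means an adjusted p under 0.05. A two-sided exact p for 2 libraries against 2 cannot go below 0.33, so tests within a line rest on the spread pooled over groups. That spread was not even. Among genes averaging a signal of 20 or more, replicates had a median absolute log2 difference of 0.130 and 0.139 in the HuH-28 groups. In the RBE and SSP-25 groups it was 0.065 to 0.073. The pooled standard error can thus be too small for HuH-28 and too large for RBE and SSP-25. On simulated data with 50 of the 16146 genes at each planted size, the average contrast passed 70% of changes of 0.4, 76% of 0.8, 92% of 1.5 and 98% of 3 on the log2 scale, and 14 unchanged genes. All other genes were left unchanged there, while 8464 passed on average in these data. The adjustment over all genes was thus under other conditions, and these rates do not give the sensitivity of the tests above.

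The enzymes and all gene lists were chosen with earlier results of these data known. Named genes were the 10 enzymes, STK11, up to 3 genes of each other list with the largest absolute average log2 fold change among those passing whose LKB1 and control libraries did not overlap in any line, and the 5 genes most correlated with CHPF. UTRs were read from GENCODE v29 transcripts with Python 3.11.15. Alternatives were other pseudocounts, filters and scaling, no trend, replicate blocks, each line alone, and leaving out each library or line. Protein sequences were not used here. The result of 1 marker gene is not reported here.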

Additional observations from a re-analysis of the deposited data

Results flagged for a closer look

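With 2 libraries a group, no single library could be judged as standing apart. The response to LKB1 siRNA differed between the 3 lines, by limma's F test, for 13 of the genes named, with adjusted p-values as follows. Among the chondroitin sulfate enzymes these were CHST11 (1.3e-04), CHST12 (0.0025), CHPF2 (0.0059), UST (0.0073), CHPF (0.0082) and CSGALNACT1 (0.045). CHST11, CHST12, CHPF2 and UST changed most in RBE, and CHPF and CSGALNACT1 least in HuH-28. Among the other genes they were DSE (5.6e-05), which was lower in HuH-28 and higher in RBE and SSP-25, UGP2 (0.0038), SPOCK1 (0.0042), FAM20B (0.0046), SPOCK2 (0.014) and SLC35D1 (0.024). SPOCK1, SPOCK2, UGP2 and SLC35D1 had their largest log2 fold change in SSP-25, and FAM20B fell most in RBE, by 0.83. The knockdown itself differed, with STK11 at 0.0013 and its deepest fall in SSP-25.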

How the results depend on the processing

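The counts of enzymes passing on average, in each line, in the F test of response and in control level stayed within 1.5 times their main value under every alternative run, and no fold change of an enzyme turned below 0 in any. Of the values of single genes, 1776 kept their side of the threshold, 34 lost it and 7 gained it. For CHPF the average log2 fold change ranged from 2.78 without SSP-25 to 3.10 without HuH-28.

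Counts of other lists were less steady. Core proteins lower (2) came to 1 at a pseudocount of 0.1, with no filter, at a mean signal of at least 5, with no trend and without HuH-28, and to 0 without SSP-25; without single libraries it ranged from 1 to 2 (1 without HuH-28 control 1 or 2 or LKB1 siRNA 1, RBE control 2, SSP-25 control 1 or 2 or LKB1 siRNA 2). Breakdown lower (2) was 4 without HuH-28, 1 without RBE and from 2 to 4 without single libraries (4 without the first HuH-28 control or the second HuH-28 LKB1 siRNA library). Heparan sulfate synthesis lower (0) was 1 without HuH-28. Linker higher (6) was 3 without RBE, and substrates higher (5) was 3 without RBE or without SSP-25. The cause was not tested.

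Replicate numbers were not taken to pair the libraries, since not every line correlated above 0.1, although HuH-28 did: deviations of same-numbered libraries correlated at 0.43 in HuH-28, 0.03 in SSP-25 and 0.002 in RBE. With the number as a block 10 enzymes passed on average, and 8529 genes in place of 8464; with the number within line as a block 10 enzymes and 9306 genes passed, and breakdown lower was 4. CSGALNACT2 then passed the F test of response (adjusted p = 0.020 and 0.022). Among the fits in which CHPF2 passed in SSP-25 were those with the block within line (0.18) and after quantile normalization (0.25).

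Depth is unknown, and no counting interval was computed. Signals near 1 depend most on the pseudocount: CHST15 in SSP-25 had a log2 fold change of 1.39, and of 0.23 at a pseudocount of 10.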
